A study of Mus musculus with 32 samples.

Results

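Bex1, Bex2, Ngfrap1, Tceal8 and Wbp5 are 5 of 1006 X-linked genes listed in these tables, and they were chosen by name as the Bex and Tceal genes with appreciable expression in mouse XEN cells. The choice was made with their levels in all groups in view, so the levels below are a description, and none of them was tested. XEN cells are stem cell lines of the extraembryonic endoderm. These carry genomes of 129S1/SvImj and JF1/Ms, and sequence differences between the strains separate RNA of the active X (Xa) from that of the inactive one (Xi). The 32 RNA samples fall into 12 groups, and the authors deposited 1 merged FPKM value per gene, allele and group (a read level scaled to transcript length and to sequencing depth) in 4 tables. No value therefore has a replicate error, and the depth is unknown.

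The groups are 3 WT samples, 4 XistpA samples, 2 XRR KO samples from 2 clones and 3 XRRa KO samples in the first table. The second table holds XRRb XaKO, XRRb XiKO, XRRc XaKO and XRRc XiKO with 2 samples each. The third holds Rad21-degron cells with DMSO or dTAG, 4 samples each from 2 clones that the merged columns pool, and the fourth Ctcf-degron cells with DMSO or dTAG for 48 h, 2 samples each. The labels explain neither XistpA nor the XRR names, and do not say whether the other lines are single clones. All groups share the same cross and culture. Which strain carries Xi is not stated here. Within a line, a strain difference in level or in read assignment cannot be told apart from a difference between Xa and Xi. In the degron lines dTAG, a small molecule, triggers breakdown of the tagged protein, Rad21 (a cohesin subunit) or Ctcf (the insulator protein), and DMSO is the solvent control. Tables were kept apart for levels, and only the Xi share (Xi FPKM as a percent of Xa plus Xi FPKM) was set side by side between them. Genes with a mean Xa plus Xi level of at least 1 FPKM in a table counted as tested, which left 270, 261, 247 and 277 genes in the 4 tables, all 5 members in each.

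Bex genes ("brain-expressed X-linked") encode small, largely disordered adaptor proteins, best known from neurons and tumours. Ngfrap1, also called Bex3 or NADE, binds the p75 neurotrophin receptor and takes part in its cell death signal, and Bex1 binds the same receptor. Tceal genes encode proteins that resemble the transcription elongation factor TFIIS, and Wbp5, now named Tceal9, was first found as a ligand of WW domains. The genes lie side by side on the X chromosome and arose by duplication in mammals. In female cells Xist RNA coats Xi and silences most of its genes, while escape genes such as Kdm5c, Eif2s3x and Ddx3x stay active there.

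Most of the members share a promoter sequence. RefSeq promoters, given on GRCm38.p6 while the authors worked on mm9, run from 250 bases before to 50 after each start, and all 5 members matched by symbol or synonym (Wbp5 as Tceal9, Ngfrap1 as Bex3). After these promoters had been read, an element of TGACG, a spacer of 7 or 9 bases and CANGTGA was written down (TGACGNNNNNNNCANGTGA or TGACGNNNNNNNNNCANGTGA) and searched on both strands. It overlaps the E-box CACGTG wherever its N is C. The element stood within 15 bases of the annotated start in 4 of the 5 members. The stretches that hold it are shown because they set the gene most expressed on Xi (Wbp5) beside genes listed near 0 there (Bex1 and Ngfrap1), with the element in capitals, each 5′ to 3′ on the gene's own strand.
Wbp5: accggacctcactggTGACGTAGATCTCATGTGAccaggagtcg
Tceal8: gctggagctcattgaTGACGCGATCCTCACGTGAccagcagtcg
Bex1: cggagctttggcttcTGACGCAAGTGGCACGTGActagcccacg
Ngfrap1: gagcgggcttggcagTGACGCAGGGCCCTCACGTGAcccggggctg

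Of 32851 mouse promoters 25 held the element (0.0761%), against 9 of the 11 X-linked Bex and Tceal genes at 1 or more of their starts. On the X chromosome it was found at 14 genes, 9 of the family and 3 Armcx genes among them. The Wbp5 window holds no CACGTG, and 7.15% of all promoters do. No element was found in the window of Bex2. That window ends in gagcgggcttggcag, the letters that stand right before the element in Ngfrap1, and bases past its end were not searched. The Bex2 window shares an unbroken run of 162 bases with the promoter of Ngfrap1, while Tceal8 and Wbp5 share at most 17. The promoters of the members hold between 8 and 13 CpG dinucleotides, against a median of 7 over all promoters. Because the element was written from these promoters, with a free base and either spacer so that it takes in Wbp5 and Ngfrap1, its count in the family follows from that choice and supports nothing. A match is a description of letters only, and its absence says only that they are not in this window. Both promoters of the members expressed on Xi are given whole, with the element in capitals. The first lies at chrX:136172202-136172501 on the minus strand and the second at chrX:136244830-136245129 on the plus strand, both of GRCm38.p6.
Tceal8: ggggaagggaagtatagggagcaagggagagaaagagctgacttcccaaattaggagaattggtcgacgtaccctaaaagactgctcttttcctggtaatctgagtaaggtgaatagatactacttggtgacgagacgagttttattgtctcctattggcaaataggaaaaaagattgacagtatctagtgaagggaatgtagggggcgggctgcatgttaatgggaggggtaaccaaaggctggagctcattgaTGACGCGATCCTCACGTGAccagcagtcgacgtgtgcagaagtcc
Wbp5: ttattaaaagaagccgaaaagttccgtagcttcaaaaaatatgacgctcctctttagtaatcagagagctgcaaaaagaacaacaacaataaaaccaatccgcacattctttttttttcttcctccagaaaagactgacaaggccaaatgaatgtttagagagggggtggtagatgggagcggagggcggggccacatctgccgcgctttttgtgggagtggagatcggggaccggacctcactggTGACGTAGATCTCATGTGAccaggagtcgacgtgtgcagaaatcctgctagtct

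All 5 are short genes of 2 to 4 exons in the GENCODE M21 annotation, with the coding sequence in 1 exon. Shared sequence can mix their reads. A Bex1 transcript matched Bex4 at 98.9% identity over 30.6% of its length, and a Bex2 transcript matched Ngfrap1 at 99.5% over 24.6%. A Bex1 transcript also lies antisense to Tceal7 over 42.8% of its length, and the unstranded libraries cannot tell those reads apart. A Tceal8 transcript matched Gm47178 at 96.4% over 32.7%. No member had a copy at 95% identity over 50% of a transcript, and no other transcript aligned to those of Wbp5.

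On Xa the members ranked high among the tested X-linked genes, which follows in part from their choice by expression. Ngfrap1 ranked between the third and the fifth of the tested genes by Xa FPKM in every group, Bex1 between 4 and 9, Wbp5 between 5 and 8, Tceal8 between 16 and 30, and Bex2 between 18 and 54. Together they made up 9.13% to 15.0% of the Xa FPKM of the tested genes in a group.

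Ngfrap1 stood at 509 FPKM on Xa in WT, 377 in XistpA, 397 in XRR KO and 612 in XRRa KO. It stood at 683 and 595 FPKM in XRRb XaKO and XiKO and at 648 and 534 in XRRc XaKO and XiKO. With DMSO and dTAG it stood at 455 and 316 FPKM in the Rad21 lines and at 365 and 415 in the Ctcf lines. It was the highest member on Xa in each group but the Ctcf line with DMSO, where Bex1 was higher. Bex1 had 422, 269, 285 and 490.0 FPKM on Xa in WT, XistpA, XRR KO and XRRa KO. In the second table its Xa values were 593 and 442 FPKM in XRRb XaKO and XiKO, and 519 and 426 in XRRc XaKO and XiKO. In the degron tables Bex1 had 354 FPKM with DMSO and 204 with dTAG in Rad21, and 409 and 397 FPKM in Ctcf. The ratio of Ngfrap1 to Bex1 on Xa, a comparison of levels per length within a column, lay between 0.891 and 1.55 over the 12 groups.

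Bex2, the close relative of Bex1, was the lowest member on Xa in 9 of 12 groups, with 48.2, 41.5, 50.9 and 54.4 FPKM in WT, XistpA, XRR KO and XRRa KO. Its Xa values were 82.1 and 65.5 FPKM in XRRb XaKO and XiKO and 68.8 and 62.6 in XRRc XaKO and XiKO. In Rad21 it had 55.2 FPKM with DMSO and 77.1 with dTAG, and in Ctcf 43.2 and 74.7, so that it exceeded Tceal8 in the degron columns except Rad21 with DMSO. Bex1 was between 2.65 (Rad21 with dTAG) and 9.47 times (Ctcf with DMSO) as high as Bex2 on Xa.

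**Figure D1:**
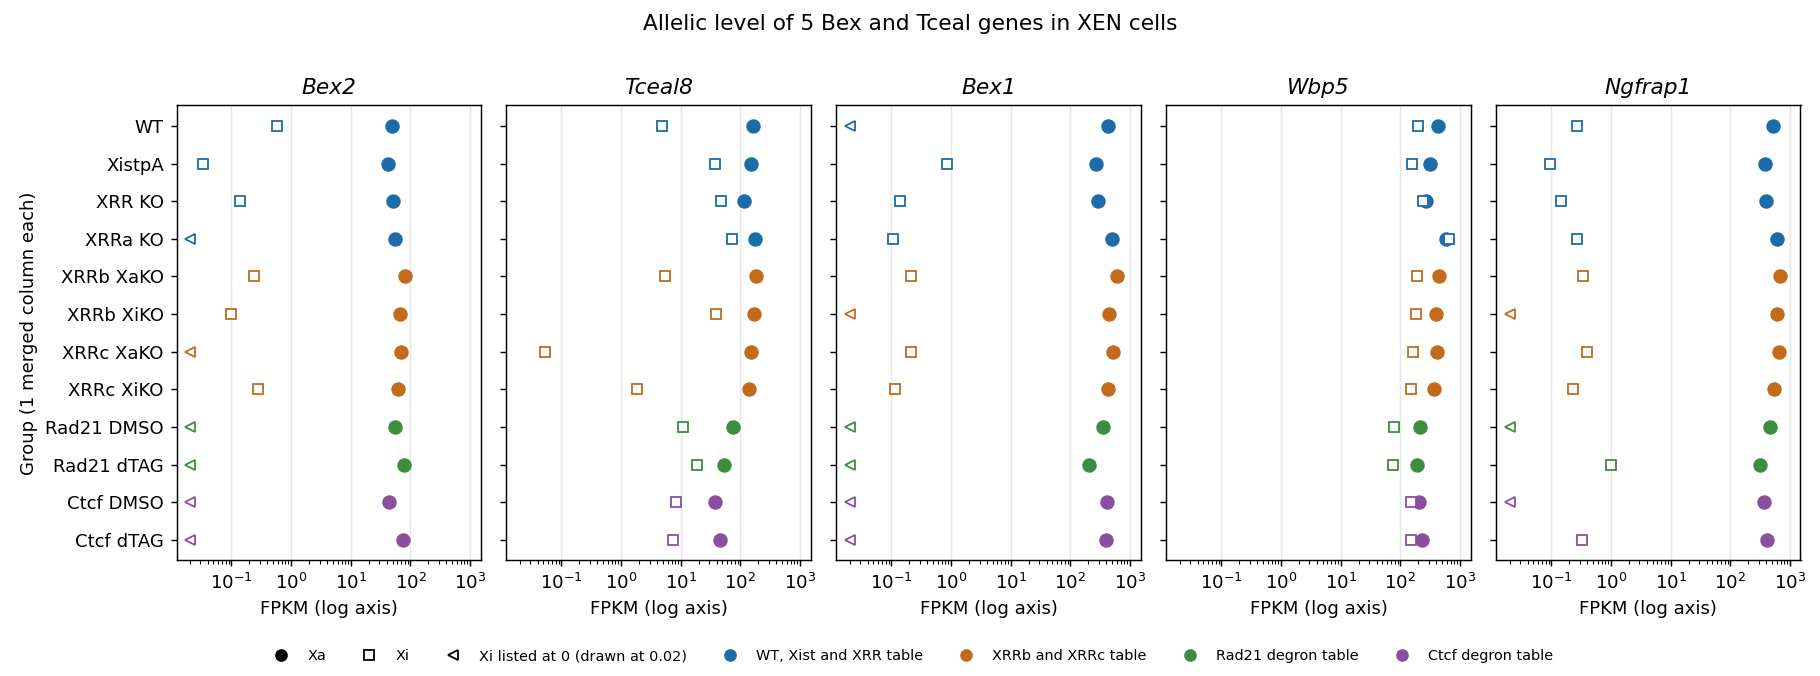
FPKM on a log axis for each of the 5 genes (panels, in chromosomal order) in the 12 groups (rows, 1 merged column each, with no error bar). Filled circles are Xa, open squares Xi and open triangles an Xi value listed at 0, with colours for the 4 tables. Wbp5 has Xi squares next to the Xa circles in every group, Tceal8 has Xi squares that range from 0.0531 to 71.9 FPKM, and the other genes stay under 1 FPKM on Xi.

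On Xi the members fell into 3 kinds. Wbp5 was expressed from Xi in all 12 groups, Tceal8 in some, and Bex1, Bex2 and Ngfrap1 were at or near 0 in all. In bulk RNA a few cells with a high level and a low level in every cell cannot be told apart. An Xi share of 10% or more was held by 1 of the 5 members, Wbp5, in WT (12.2% of the tested genes), XRRb XaKO (13.4%), XRRc XaKO (11.5%) and XRRc XiKO (12.3%). In the other 8 groups Tceal8 also reached it. There the share of tested genes was 20.4% in XistpA, 21.5% in XRR KO, 15.9% in XRRa KO and 14.2% in XRRb XiKO. It was 13.4% and 15.0% in Rad21 with DMSO and dTAG, and 13.4% and 13.0% in Ctcf with DMSO and dTAG.

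**Figure D2:**
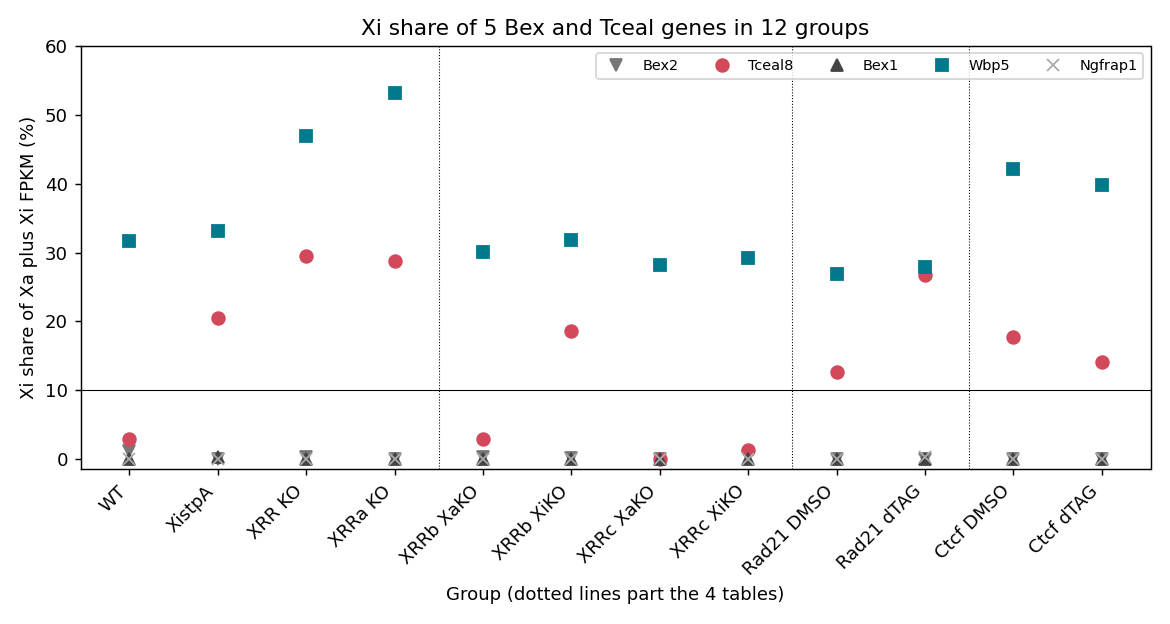
Xi share (percent of Xa plus Xi FPKM) of the 5 genes in the 12 groups, 1 point per gene and merged column, with dotted lines between the 4 tables and a solid line at 10%. Wbp5 lies between 26.9% and 53.1%, Tceal8 between 0.0347% and 29.5%, and the other genes at or under 1.17%.

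Wbp5 had 199.8 FPKM on Xi and 430.0 on Xa in WT, a share of 31.7%. In XistpA it had 158 FPKM on Xi and 319 on Xa (33.1%), in XRR KO 239 and 271 (46.9%), and in XRRa KO 649 and 573 (53.1%). XRRa KO was the only group in which its Xi value exceeded its Xa value. In XRRb XaKO and XiKO its Xi values were 192 and 185 FPKM (30.1% and 31.8%), and in XRRc XaKO and XiKO 161 and 153 FPKM (28.2% and 29.2%). Rad21 cells had 78.3 FPKM on Xi with DMSO and 74.2 with dTAG (26.9% and 27.9%), and Ctcf cells 149 and 149.6 FPKM (42.1% and 39.8%). In 10 of the 12 groups the share thus stayed between 26.9% and 42.1%, with XRR KO and XRRa KO above. Wbp5 ranked between the first and the third among the tested genes by Xi FPKM in every group. It alone gave between 5.86% (XistpA) and 31.2% (Ctcf with dTAG) of the Xi FPKM of tested genes other than Xist and Tsix. The range of its share overlapped those of the reference escape genes, 27.3% to 53.0% for the RNA helicase Ddx3x, 20.0% to 52.5% for the translation factor Eif2s3x and 16.3% to 51.0% for the histone demethylase Kdm5c. Within single groups they differed, and the part of strain differences at single genes was not tested. In XistpA, Ddx3x, Eif2s3x and Kdm5c stood at 53.0%, 50.9% and 51.0%, and Wbp5 at 33.1%. In Ctcf with DMSO these 3 genes stood at 31.5%, 36.0% and 16.3%, and Wbp5 at 42.1%.

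Tceal8 was low on Xi in some groups and well expressed in others. It had 4.81 FPKM on Xi in WT (2.91%), 38.1 in XistpA (20.5%), 47.4 in XRR KO (29.5%) and 71.9 in XRRa KO (28.8%). XRRb XaKO had 5.46 FPKM (2.94%) and XRRb XiKO 38.2 FPKM (18.5%), while XRRc XaKO had 0.0531 FPKM (0.0347%) and XRRc XiKO 1.83 FPKM (1.28%). Rad21 cells had 10.8 FPKM with DMSO (12.7%) and 19.0 with dTAG (26.7%), and Ctcf cells 8.22 and 7.49 FPKM (17.7% and 14.1%). The 5 reference columns (WT, XRRb XaKO, XRRc XaKO and both DMSO columns) already ranged from 0.0347% to 17.7%, and the 7 columns set against them from 1.28% to 29.5%, so these ranges overlap. On Xa, Tceal8 had 161, 148, 113 and 178 FPKM in WT, XistpA, XRR KO and XRRa KO. Its Xa values in XRRb XaKO and XiKO were 181 and 168 FPKM, and in XRRc XaKO and XiKO 153 and 141 FPKM. With DMSO and dTAG they were 74.4 and 52.1 FPKM in Rad21 and 38.1 and 45.5 in Ctcf.

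Bex1, Bex2 and Ngfrap1 never exceeded 0.985 FPKM on Xi. Bex1 was listed at 0 on Xi in 6 of 12 groups and was highest in XistpA, at 0.849 FPKM (0.315%). Bex2 was listed at 0 in 6 groups and was highest in WT, at 0.569 FPKM (1.17%). Ngfrap1 was listed at 0 in 3 groups and was highest in Rad21 with dTAG, at 0.985 FPKM (0.311%), where its Xa value was 321 times its Xi value. A listed 0 can be a failed estimate in such files, and without the depth these low values carry no interval.

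XistpA was set against WT. Changes are differences of log2(FPKM + 0.5), which makes those of low genes smaller than they are, and "rose" or "fell" means a change of 1 or more. On Xi 2 of 5 members rose (12.2% of 270 tested genes did) and 1 fell (1.48%). Tceal8 rose by 2.86 (4.81 to 38.1 FPKM), Bex1 rose by 1.43 from a listed 0 to 0.849 FPKM, and Bex2 fell by 1.00 from 0.569 to 0.0336 FPKM. Wbp5 and Ngfrap1 were at -0.33 and -0.37. The calls of Bex1 and Bex2 rest on values under 1 FPKM and ended with a pseudocount of 1 (0.89 and -0.60), and that of Bex2 also at equal median Xa FPKM (-0.99). On Xa none of the 5 passed the size rule in either direction (4.44% of tested genes did), and all 5 were lower, from -0.12 (Tceal8) to -0.65 (Bex1), as were 51.5% of tested genes. Xist, the gene named in the label, was listed at 0 on Xi in XistpA against 15.5 FPKM in WT. Xist levels are given beside each XRR comparison too, and their part in the members' changes was not tested.

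In XRR KO against WT 1 member rose on Xi (15.9% of tested genes did), Tceal8 by 3.17 to 47.4 FPKM. Wbp5 was at 0.26 on Xi and -0.66 on Xa, and its share was 46.9% against 31.7%. On Xa none of the 5 passed the size rule (4.81% did), and 4 were lower, with Bex2 at 0.08, against 62.6% of tested genes. The median Xa change over the tested genes was -0.19. Xist on Xi stood at 1.18 FPKM.

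In XRRa KO against WT 2 members rose on Xi (5.93% of tested genes did) and 1 fell (1.11%). Tceal8 rose by 3.77 to 71.9 FPKM, the second largest rise of the 270 tested genes. Wbp5 rose by 1.70 to 649 FPKM, its only call in the 7 comparisons. Bex2 was listed at 0 on Xi in XRRa KO against 0.569 FPKM, a change of -1.10 that was -0.65 with a pseudocount of 1. Bex1 and Ngfrap1 were at 0.28 and 0.00. On Xa none of the 5 passed the size rule (0.741% did), and all 5 were higher, from 0.15 (Tceal8) to 0.41 (Wbp5), while 44.1% of tested genes were lower. Xist on Xi stood at 7.86 FPKM. XistpA, XRR KO and XRRa KO share the WT column, so their changes in Tceal8 are given side by side and are not independent.

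XRRb XiKO was set against XRRb XaKO, and 1 member rose on Xi (1.92% of 261 tested genes did). Tceal8 rose by 2.70 from 5.46 to 38.2 FPKM, the largest rise in this comparison. Wbp5 was at -0.05 on Xi, and Bex1 and Ngfrap1 went from 0.216 and 0.337 FPKM to a listed 0. On Xa none of the 5 passed the size rule (3.07% did). All 5 were lower, as were 70.5% of tested genes, and at equal median Xa FPKM 4 were lower. The Xi level of Xist was 10.9 FPKM in XRRb XaKO and 6.72 in XRRb XiKO.

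In XRRc XiKO against XaKO 1 member rose on Xi (0.766% did). Tceal8 rose by 2.08 from 0.0531 to 1.83 FPKM, the largest of 2 rises, and its level in XiKO was still below that of WT and XRRb XaKO by share (1.28% against 2.91% and 2.94%). Its change depended on the pseudocount, with 3.66 at 0.1 and 1.43 at 1. Wbp5 was at -0.07 on Xi. On Xa none of the 5 passed the size rule (2.30% did), and all 5 were lower, from -0.11 (Tceal8) to -0.28 (Bex1), as were 61.7% of tested genes. Xist on Xi was 8.35 and 9.74 FPKM.

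With Rad21 degradation, 1 member rose on Xi (4.05% of 247 tested genes did). This was Ngfrap1, by 1.57 from a listed 0 to 0.985 FPKM, or by 0.99 with a pseudocount of 1. Its Xa value with dTAG was 320.999 times its Xi value, close to a whole number. Whether the Xi value rests on a single read was not tested. Tceal8 was at 0.78 on Xi and -0.51 on Xa, and its share was 26.7% against 12.7%. It passed the size rule on Xi at equal median Xa FPKM (1.18) and centred on the median Xa change (1.04). Wbp5 was at -0.08 on Xi and -0.15 on Xa, both of which turned positive at equal median Xa FPKM (0.33 and 0.26). On Xa none of the 5 passed the size rule (21.5% did), with Bex1 at -0.79 and Bex2 at 0.48. Of 4 tested extraembryonic endoderm genes, only Cited1 passed the size rule in the same comparison, and it fell on both alleles (-2.19 on Xa and -2.25 on Xi). On Xa, Gpc3 was at -0.96 and Trap1a at 0.18, and Amot had 2.43 FPKM with DMSO and 1.56 with dTAG. The part of cell state in the members' values was not tested. Rad21 is autosomal and was not analysed here, and its depletion could not be checked.

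With Ctcf degradation none of the 5 members passed the size rule on Xi in either direction (0.722% of 277 tested genes did). Tceal8 was at -0.13 (8.22 and 7.49 FPKM), Wbp5 at 0.00 (149 and 149.6 FPKM), and Ngfrap1 went from a listed 0 to 0.333 FPKM. On Xa none passed it (6.14% did). Bex2 was at 0.78 and Bex1 at -0.05, and the median of the tested genes was 0.23. At equal median Xa FPKM, 4 members were lower on Xa instead of 1. Ctcf is autosomal as well and was not analysed here.

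**Figure D3:**
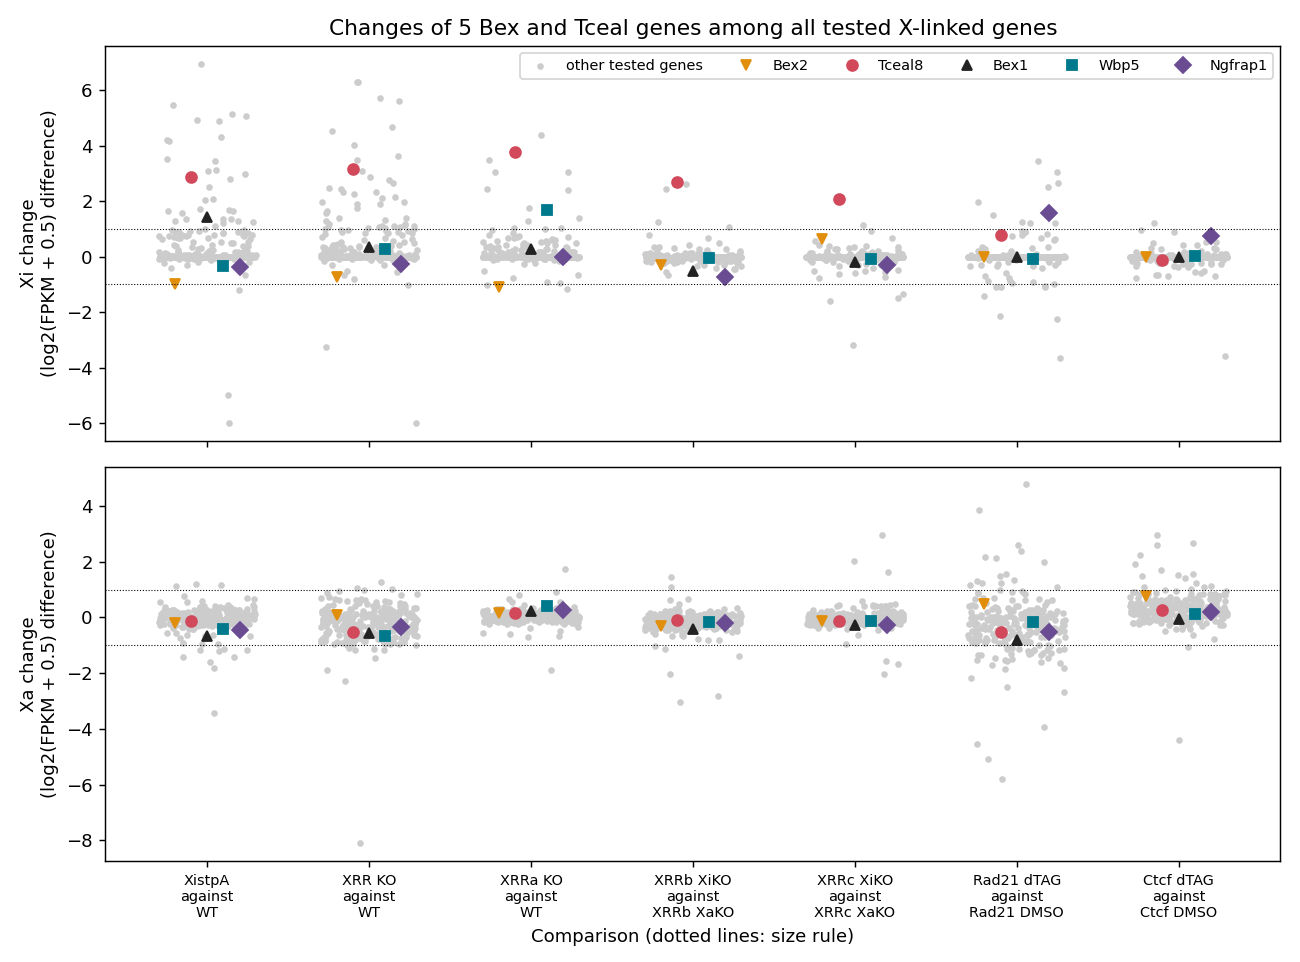
Changes on Xi (top) and Xa (bottom) as differences of log2(FPKM + 0.5) in the 7 comparisons, with the 5 genes as coloured symbols, the other tested genes as grey points spread sideways at random, and dotted lines at -1 and 1. On Xi Tceal8 lies above 1 in the 5 comparisons of the XistpA and XRR lines (2.08 to 3.77), and on Xa all 5 genes lie between the dotted lines in all 7.

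Of 7 comparisons, Tceal8 rose on Xi in 5, Wbp5, Bex1 and Ngfrap1 in 1 each, and Bex2 fell in 2. Where a member rose, 0.766% (XRRc XiKO) to 15.9% (XRR KO) of tested genes did. Where Bex2 fell, 1.48% (XistpA) and 1.11% (XRRa KO) did. The rises of Tceal8 in XistpA, XRR KO and XRRa KO share the WT column. The calls of Bex1, Bex2 and Ngfrap1 rest on values under 1 FPKM and were lost with a pseudocount of 1. The rise of Tceal8 in XRRc XiKO also started under 1 FPKM, at 0.0531, and was 1.43 with that pseudocount. On Xa no member passed the size rule in any of the 7, and 0.741% (XRRa KO) to 21.5% (Rad21 with dTAG) of tested genes did.

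The other X-linked Bex and Tceal genes were low or listed at 0, which follows from the choice of the members by expression. Bex4 and Tceal6 were listed at 0 on both alleles in all 12 groups, and Tceal1 and Tceal3 in all but Rad21 with dTAG, where each had a value on Xi only (0.121 and 0.145 FPKM). Tceal5 reached 1.58 FPKM on Xa in Ctcf with DMSO and was tested in that table only. Tceal7 reached 1.09 FPKM on Xa in XRRb XaKO and passed the filter in no table. The highest Xi value of these 6 genes was 0.236 FPKM, for Tceal5 in XRRa KO. Transcripts of Tceal3 and Tceal6 are near-identical (98.4% over 92.2% of a Tceal3 transcript), and Bex4 matched Bex1 at 98.9% over 31.7%, and whether reads were lost to such copies was not tested. Bex3 and Tceal9 appear under their older names Ngfrap1 and Wbp5.

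Other X-linked genes of p75 neurotrophin receptor signalling were looked at next to Bex1 and Ngfrap1. The list also held Eda2r, which is a separate receptor of the same superfamily. Of 5 genes tested besides these members, Eda2r rose on Xi in XistpA (5.15), XRR KO (5.73), XRRa KO (3.50) and Rad21 with dTAG (3.45). It also rose on Xa in Rad21 with dTAG (1.31). Mageh1 rose on Xa in Ctcf with dTAG (2.68), from a listed 0 to 2.70 FPKM. The Ctcf line with DMSO was the only group in which it was listed at 0 on Xa. The other 3 genes, Maged1, Maged2 and the caspase inhibitor gene Xiap, passed the size rule in no comparison. Maged1, which binds the receptor and was singled out after its values were seen, had 20.6 to 49.4 FPKM on Xa and at most 0.171 on Xi.

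Around the members, genes with and without Xi expression lay side by side. In the RefSeq gene order of GRCm38.p6 the tested genes run Bex2, Tceal8, Bex1, Wbp5 and Ngfrap1, and no other gene tested in all 4 tables lies between them. Wbp5 was thus flanked by Bex1 and Ngfrap1, which had at most 0.315% and 0.311% on Xi. Of the 5 tested genes on either side, 5 of 10 reached a share of 10% in at least 1 group, as did 26.2% of the 233 genes tested in all 4 tables, and the other 5 stayed under 3% in all. Morf4l2, a subunit of histone acetyltransferase complexes that follows Ngfrap1, rose on Xi in XistpA (4.88), XRR KO (4.66), XRRa KO (2.44) and XRRb XiKO (2.44). In XRRc XiKO it fell by 1.35, where Tceal8 rose, and with Rad21 degradation it was listed at 0 against 5.86 FPKM. Morf4l2 resembles Morf4l1 closely, and whether its reads were shared was not tested. Mum1l1 rose on Xi in XistpA, XRR KO and XRRa KO (3.51, 3.49 and 3.05) and Armcx5 in XistpA (1.24), while Gprasp1, Tmsb15b2 and Trap1a rose in XRR KO (1.19, 2.16 and 1.88).

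**Figure D4:**
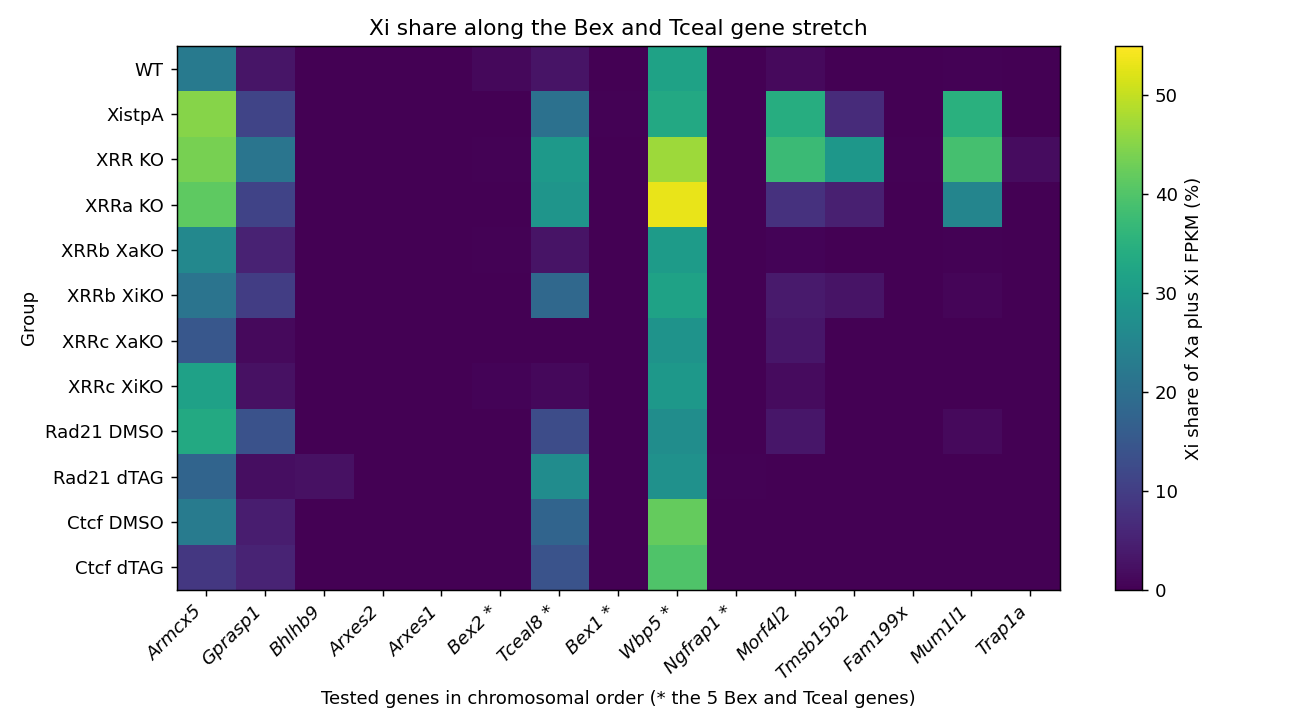
Xi share (colour, percent of Xa plus Xi FPKM) of the 5 genes, marked by asterisks, and of the 5 genes tested in all 4 tables on either side, in chromosomal order from left to right, in the 12 groups (rows). Wbp5 is bright in every row (26.9% to 53.1%), Tceal8 in 8 rows, and Bex2, Bex1 and Ngfrap1 are dark throughout (at most 1.17%).

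Among 60 other genes tested in all 4 tables with a share of 10% or more in at least 1 group, those closest to a member were found by the mean absolute difference of the share over the 12 groups. For Wbp5 they were Ndufa1, a subunit of respiratory complex I (7.42 percentage points), the RNA methyltransferase gene Ftsj1 (7.61) and Wdr45 (8.22). For Tceal8 they were its neighbour Gprasp1 (8.06), Pbdc1 (8.14) and Tmem29 (8.34). By the mean absolute difference of the 7 Xa changes, among 232 other genes, Bex1 and Wbp5 both lay closest to Ngfrap1 (0.17 and 0.15 on the log2 scale). Ngfrap1 lay closest to Cul4b (0.13), with Tceal8 and Wbp5 next (0.13 and 0.15). Tceal8 lay closest to G6pdx (0.086) and Bex2 to Hdac6 (0.12), and no other member was among the 3 genes closest to either. Of the 7 comparisons 3 share the WT column, so these measures describe the columns only.

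The labelled cell type was checked on X-linked genes, the only ones in these tables. Of 4 listed genes of extraembryonic endoderm, Cited1, Gpc3, Amot and Trap1a, all were tested in every group, with a summed Xa plus Xi level of 96.1 to 368 FPKM. The highest sum, in XistpA, includes 116 FPKM of Cited1 from Xi. On Xi, Cited1 rose in XistpA (4.17), XRR KO (3.10) and XRRa KO (1.59), where Tceal8 also rose, and Amot and Trap1a rose in XRR KO. In XRRb XiKO and XRRc XiKO, where Tceal8 rose too, Cited1 was at -0.14 and 0.31 on Xi. With Rad21 degradation Cited1 fell on Xi (-2.25), while Tceal8 was at 0.78. On Xa, Gpc3 fell in XistpA (-1.14) and XRRc XiKO (-1.55) and rose in XRRb XiKO (1.08), and the part of such differences in the members' changes was not tested. Of 5 neuronal genes the sum was at most 0.278 FPKM, and of 3 embryonic stem cell genes at most 0.00875 FPKM. Of 4 trophoblast genes the sum was 0.306 to 5.41 FPKM, and Rhox6 and Rhox9 were listed at 0 in all groups. Plac1 was above 0 on Xa in every group (0.306 to 3.60 FPKM), a range that overlapped that of Amot (1.56 to 4.11). Esx1 reached 2.92 FPKM on Xa in XRRa KO.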

How the data were processed

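Per the labels' protocols, polyadenylated RNA was made into Smart-seq2 libraries, which do not mark strand. Per the submitters' processing notes the build was mm9 and the tools StringTie 2.1.1, HISAT2 2.2.0 and Trim Galore 0.6.4, with no settings. The method of allele assignment was not given in the sources used here. Values are FPKM that the authors deposited merged over the samples of a group, in 1 column for each group and allele, so no test could be run. The Ctcf table's columns name only the treatment, and the table's name gives the line. A mean Xa plus Xi FPKM of 1 or more over a table was required, and a log2(FPKM + 0.5) change of 1 or more counted as a change. The code for changes was checked on the WT Xa column with set fold changes put into some genes, and the other code was not tested so. Named genes were the 5 members, the other family genes, genes of fixed lists past the size rule, reference escape genes and the 3 genes nearest to a member. The members and lists were chosen with earlier results of these data known. The promoter element was chosen after the sequences were read. Promoters came from RefSeq and transcripts from GENCODE M21, aligned with minimap2 2.31. Computing used pandas 2.3.3 with numpy 2.4.6 in Python 3.11.15, and figures matplotlib 3.10.9. Alternatives were pseudocounts of 0.1 and 1, scaling of columns to the same median Xa FPKM, centring on the median change on Xa, no filter or 5 FPKM, and share rules of 5% and 20%.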

Additional observations from a re-analysis of the deposited data

How the results depend on the processing

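Of 10 member changes past the size rule, 6 passed it in the same direction under all 4 alternatives of pseudocount and scaling: Tceal8 on Xi in XistpA, XRR KO, XRRa KO, XRRb XiKO and XRRc XiKO, and Wbp5 on Xi in XRRa KO. With a pseudocount of 1 the Xi calls of Bex1 in XistpA (0.89), Bex2 in XistpA (-0.60) and XRRa KO (-0.65) and Ngfrap1 with Rad21 degradation (0.99) were lost, and that of Bex2 in XistpA also at equal median Xa FPKM (-0.99) and centred (-0.99). With a pseudocount of 0.1, Xi calls appeared for Bex1 in XRR KO (1.25), XRRa KO (1.06) and XRRb XiKO (-1.66), Bex2 in XRR KO (-1.49) and XRRc XiKO (1.91), and Ngfrap1 in XRRb XiKO (-2.13) and with Ctcf degradation (2.11), all on values under 1 FPKM. Tceal8 with Rad21 degradation passed it at equal median (1.18) and centred (1.04). These scalings moved the median of all tested genes on Xa by 0.15 and 0.19 in XRR KO, 0.14 and 0.09 in XRRb XiKO, 0.37 and 0.26 with Rad21 and -0.25 and -0.23 with Ctcf degradation. None of the 10 changes past the size rule changed sign under these 4 alternatives. Of all 70 member changes, 9 changed sign at equal median Xa FPKM, 7 centred and 0 with either other pseudocount, all inside the size rule. At equal median these included Wbp5 with Rad21 degradation (0.26 on Xa and 0.33 on Xi), Ngfrap1 on Xa with Ctcf degradation (-0.08) and Tceal8 on Xa in XRRb XiKO (0.04).

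Counts over all tested genes moved by more than 1.5 times as follows. With a pseudocount of 0.1, Xi rises were 58 in XistpA, 69 in XRR KO, 33 in XRRa KO, 12 in XRRb XiKO, 8 in XRRc XiKO and 18 with Rad21 degradation, Xi falls 6 in XRRa KO, and Xi changes 12 with Ctcf degradation. With a pseudocount of 1, Xi falls were 2 in XistpA and 0 in XRRa KO, Xi rises 3 in XRRb XiKO and 1 in XRRc XiKO, and Xi changes 1 with Ctcf degradation. Centred, Xi rises were 17 with Rad21 and Xi changes 1 with Ctcf degradation. With a filter of 5 FPKM, Xa changes were 2 in XistpA, 8 in XRR KO, 0 in XRRa KO, 2 in XRRb XiKO, 3 in XRRc XiKO, 34 with Rad21 and 6 with Ctcf degradation, and Xi rises 1 in XRRc XiKO. Without a filter, Xa changes were 6 in XRRa KO and 12 in XRRc XiKO. At a share rule of 20%, 1 member was left in XRRb XiKO, Rad21 with DMSO and both Ctcf groups. The cause of these shifts was not tested beyond the settings themselves. No paired analysis was possible because the columns are merged over replicates, and replicates could not be left out for the same reason.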
